A study of Mus musculus with 6 samples.

Results

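Transcripts of Bergmann glia and astrocytes were examined in the cerebellum of juvenile mice with a weakened Sp4 gene. A set of 36 astroglial genes was listed by name, and each was followed through the probes that the platform annotation assigns to it on an Illumina bead array with 45281 probes. In all, 34 of the 36 genes had at least 1 such probe, 57 probes together, and Kcnj10 and Clu were not analysed here. A probe was kept where its detection p-value, which sets its signal against negative control beads, was under 0.05 on at least 3 of the 6 arrays. That left 45 probes of 33 genes, out of 19515 probes and 10764 named genes tested in the whole series. The only probe of Mlc1, a membrane protein of astrocyte end-feet, was not well above background on any array, so Mlc1 has no value here.

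The arrays came from 3 Sp4 hypomorphic males, with the genotype Sp4neo-/-, and 3 wild-type males. All were taken on postnatal day 21 from a Black Swiss X CD1 background, and the design text describes wild-type and hypomorphic littermates. A hypomorphic allele lowers a gene's output without necessarily abolishing it, and the labels restrict the allele to no cell type. Whole cerebellum was used, so that fewer cells of a type and less RNA per cell cannot be told apart. Values are background-corrected, quantile-normalized log2 intensities, and differences are hypomorph minus wild type. Between 41.2% and 44.5% of probes were above background on an array. The labels were checked with Sp4 itself, whose brighter probe read 5.99, 5.80 and 6.32 in the hypomorphs, against 7.82, 6.86 and 7.35 in wild type. The groups did not overlap, and the log2 difference of -1.30 (SE 0.26) did not pass limma's test after adjustment over all probes (adjusted p = 0.355).

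Bergmann glia are the radial astrocytes of the cerebellum, with cell bodies beside those of Purkinje cells and fibres that span the molecular layer. They clear glutamate around Purkinje cell synapses through the transporter Slc1a3 and guide migrating granule cells during development. Velate astrocytes of the granular layer and fibrous astrocytes of the white matter share many of their genes. Sp4 is a zinc-finger transcription factor that recognises GC boxes, short GC-rich elements found near many gene starts, and it is best known in neurons.

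The sequences shown here are the 250 bases upstream of the annotated start of 4 members, from RefSeq with build GRCm38.p6, because GC boxes are the element Sp4 is known to bind. The GC box was searched as GGGCGG on both strands, overlapping matches included, and matches stand in capitals. Timp4 and Fgfr3 are the members with the smallest p-values, and Id4 and S100b are members whose brightest probes followed each other across the arrays.
Timp4, chr6:115252206-115252455 (- strand): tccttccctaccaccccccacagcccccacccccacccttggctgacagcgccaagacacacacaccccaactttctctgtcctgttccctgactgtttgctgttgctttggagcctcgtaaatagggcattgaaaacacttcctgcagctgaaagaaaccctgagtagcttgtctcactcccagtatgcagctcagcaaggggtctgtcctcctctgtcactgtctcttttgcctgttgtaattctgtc
Fgfr3, chr5:33721474-33721723 (+ strand): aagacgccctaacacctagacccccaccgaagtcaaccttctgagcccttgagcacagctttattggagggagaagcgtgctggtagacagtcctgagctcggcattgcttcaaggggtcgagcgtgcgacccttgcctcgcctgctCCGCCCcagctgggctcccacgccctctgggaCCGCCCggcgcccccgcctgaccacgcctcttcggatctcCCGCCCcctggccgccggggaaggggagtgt
Id4, chr13:48260866-48261115 (+ strand): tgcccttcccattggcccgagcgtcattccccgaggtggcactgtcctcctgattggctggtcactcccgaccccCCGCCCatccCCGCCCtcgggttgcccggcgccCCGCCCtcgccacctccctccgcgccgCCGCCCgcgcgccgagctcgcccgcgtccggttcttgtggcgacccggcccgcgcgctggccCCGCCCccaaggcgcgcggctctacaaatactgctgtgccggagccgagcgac
S100b, chr10:76253586-76253835 (+ strand): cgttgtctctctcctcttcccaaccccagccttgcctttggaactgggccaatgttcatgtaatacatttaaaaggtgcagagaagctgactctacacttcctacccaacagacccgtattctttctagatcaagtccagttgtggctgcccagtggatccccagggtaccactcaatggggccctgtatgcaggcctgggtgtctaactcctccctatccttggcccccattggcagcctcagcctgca
Timp4 and S100b held no match in this window, Fgfr3 held 3 and Id4 held 5. A further annotated start of Fgfr3 had 2 overlapping matches. Of the 36 members, 32 had an entry in the promoter table, and 15 of these (46.9%) held at least 1 match, against 35.4% of 27025 genes. Those 27025 genes include many not tested here, so the sets are unlike, and a gene counted if any of its annotated starts held a match. A match is a run of letters and not evidence of binding.

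No astroglial probe differed between the genotypes after Benjamini-Hochberg adjustment over all 19515 probes in limma, where 0% of probes passed. The lowest adjusted p among the 45 astroglial probes was 0.825. With each gene represented by its brightest tested probe, 14 of the 33 members had higher and 19 lower values in the hypomorph. Lower values were found for 51.9% of all tested genes, a share close to that of the members. The median log2 difference was -0.03 over the members and -0.01 over all tested genes, and 21 of the 33 members lay within 0.2 of 0, against 69.4% of genes. Without a block for the array number, an unadjusted p under 0.05 was found for 2 members, both higher. In that fit 5.23% of genes reached it in either direction and 2.23% in the upward one, and the fit with a block is given in the closing part. The groups did not overlap for 3 members, again all higher, against 11% of genes in either direction and 5.5% in the upward one. These counts lie near the background. The sign of the median depended on single animals: it was 0.05 without hypomorph 2, 0.03 without wild type 1 and 0.02 without wild type 3, and -0.10 without wild type 2 and -0.09 without hypomorph 1.

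**Figure D1:**
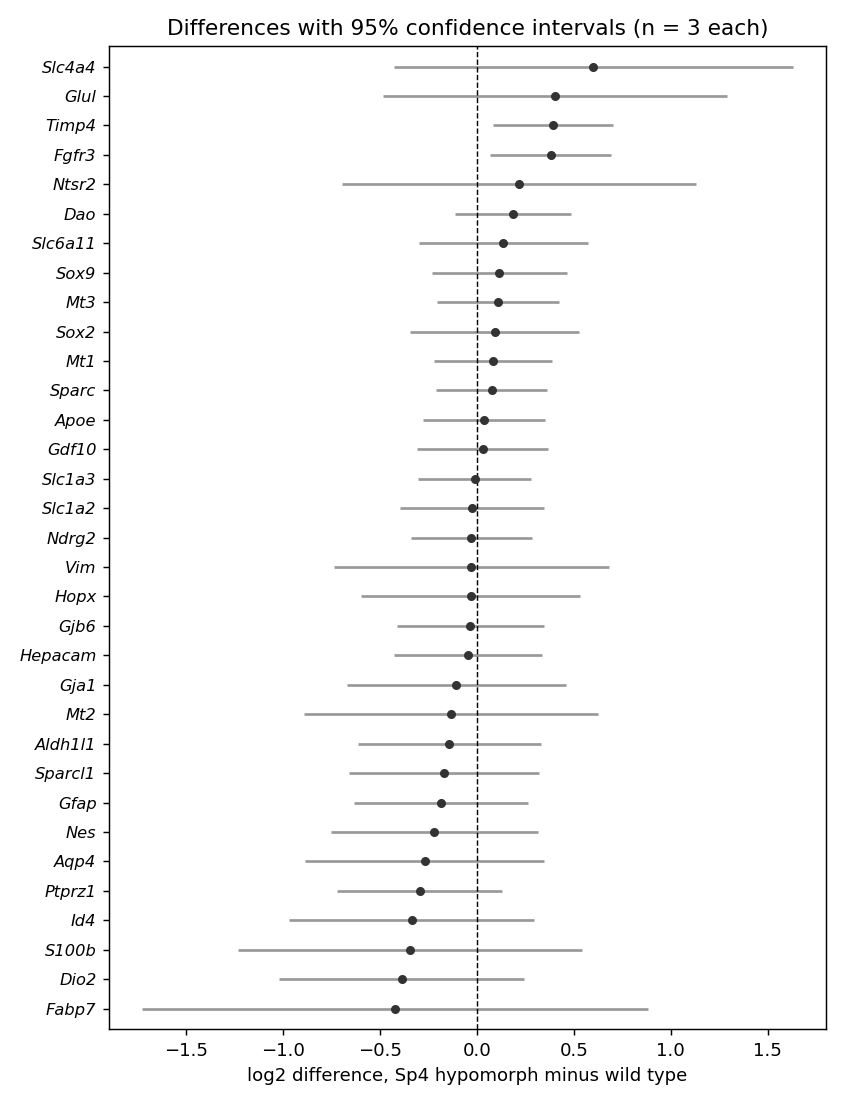
Log2 difference (Sp4 hypomorph minus wild type, x axis) of the brightest tested probe of each of the 33 measured astroglial genes, ordered by size, with 95% confidence intervals from limma (n = 3 arrays each). Intervals of Timp4 and Fgfr3 lie above 0 without adjustment, and all the others include 0.

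Secreted and surface proteins held the member with the smallest p. Timp4, an inhibitor of matrix metalloproteinases, read 12.93, 13.09 and 13.13 in the hypomorphs, against 12.75, 12.66 and 12.57 in wild type. Every hypomorph lay above every wild-type animal, and the log2 difference was 0.39 (SE 0.13, 95% confidence interval 0.08 to 0.70), or 1.31-fold. It did not pass in limma (unadjusted p = 0.0197, adjusted p = 0.825). The other 5 measured genes of this role had overlapping groups.

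Ptprz1, a receptor phosphatase of glia and their precursors, read 10.82, 10.37 and 10.81 in the hypomorphs and 11.15, 10.76 and 10.98 in wild type. The groups overlapped, and the log2 difference was -0.30 (SE 0.18), or -0.15 without hypomorph 2, while a dimmer probe differed by -0.06 (SE 0.17). Gdf10, a growth factor of the TGF-beta family and a marker of Bergmann glia, read 14.14, 13.97 and 14.21 in the hypomorphs, against 14.25, 13.98 and 14.00 in wild type. The lowest animals of both groups were nearly level, with a log2 difference of 0.03 and a 95% confidence interval of -0.31 to 0.37. The matrix protein Sparc differed by 0.08, 0.15 and 0.06 on its 3 tested probes, Sparcl1, its synapse-promoting relative, by -0.17 (SE 0.21), and Apoe, the main lipid carrier made by astrocytes, by 0.04 (SE 0.13).

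**Figure D2:**
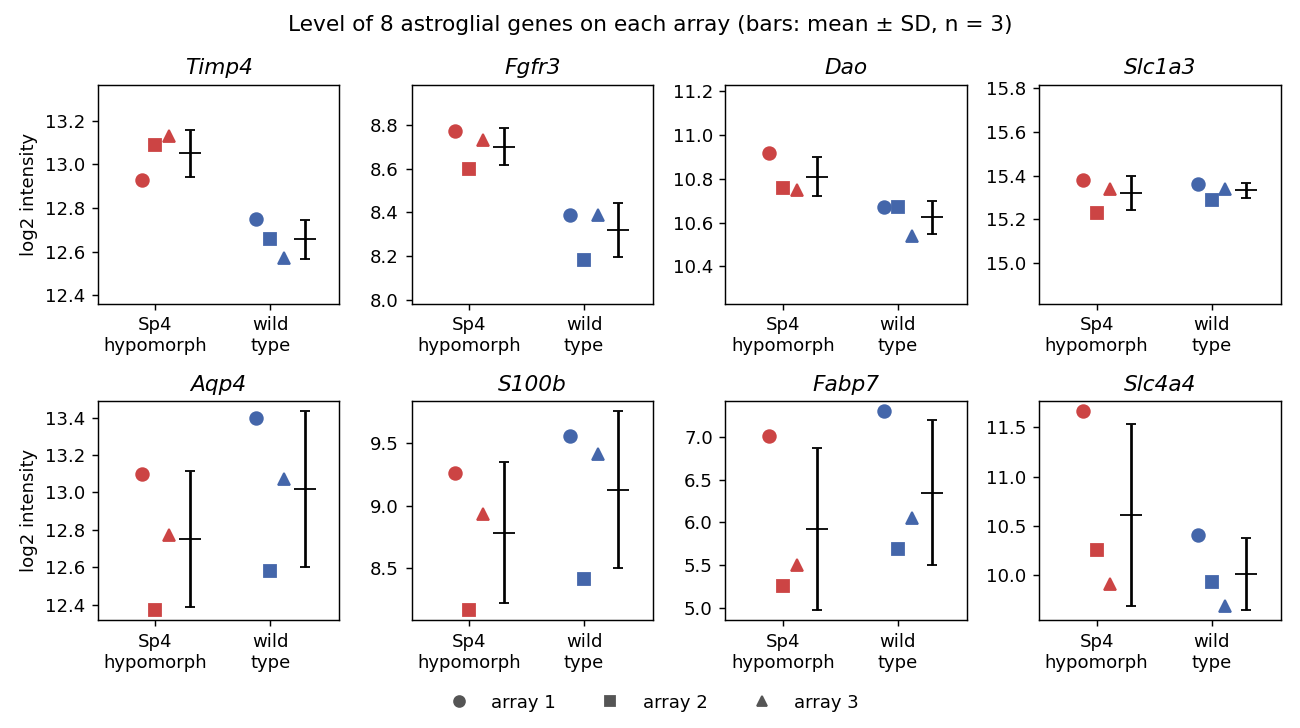
Log2 intensity (y axis, a 1-unit span or more in each panel) of 8 astroglial genes in 3 Sp4 hypomorphs (red) and 3 wild-type mice (blue), 1 point per array with the shape giving the array's number, beside the mean ± SD. Timp4, Fgfr3 and Dao do not overlap between the genotypes, whereas Aqp4, S100b and Fabp7 are high on the arrays numbered 1 and low on those numbered 2 in both.

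Among signalling and metabolic markers, Fgfr3 showed the other unadjusted p under 0.05. Fgfr3, a fibroblast growth factor receptor found on astrocytes and radial glia, read 8.77, 8.60 and 8.73 in the hypomorphs, against 8.39, 8.18 and 8.39 in wild type. The groups were separate, with a log2 difference of 0.38 (SE 0.13, 95% confidence interval 0.07 to 0.69), or 1.30-fold, which did not pass in limma (unadjusted p = 0.0237, adjusted p = 0.837). A second Fgfr3 probe was above background on 2 hypomorph arrays and on no wild-type array, at 4.87, 6.23 and 5.65 in the hypomorphs and 4.92, 5.61 and 5.05 in wild type, and was not tested. Its groups overlapped.

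Dio2, the deiodinase with which astrocytes activate thyroid hormone, read 6.20, 5.64 and 5.81 in the hypomorphs, against 6.55, 5.71 and 6.57 in wild type. Hypomorph 1 lay above wild type 2, and the log2 difference was -0.39 (SE 0.27). It was -0.67 without wild type 2, -0.25 without wild type 1 and -0.24 without wild type 3, and -0.15 with the authors' processed values. S100b, a calcium-binding protein of Bergmann glia and astrocytes, read 9.26, 8.16 and 8.93 in the hypomorphs and 9.56, 8.41 and 9.41 in wild type. The spread within each genotype exceeded the difference of -0.34 (SE 0.38), which ran from -0.70 without wild type 2 to -0.03 without hypomorph 2. Same-numbered arrays differed by -0.31, -0.25 and -0.48. Fabp7, the brain fatty acid-binding protein of radial and Bergmann glia, was above background on 1 of 3 hypomorph and 3 of 3 wild-type arrays, at 7.01, 5.25 and 5.50 in the hypomorphs and 7.30, 5.69 and 6.05 in wild type. One animal of each genotype stood well above the others, so the difference of -0.42 had an SE of 0.56 and ran from -0.97 to 0.05 with 1 array left out. Between same-numbered arrays it was -0.29, -0.44 and -0.55.

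Aldh1l1, a folate enzyme used as a general astrocyte marker, read 9.68, 9.07 and 9.77 in the hypomorphs, against 9.64, 9.66 and 9.64 in wild type. On this probe only hypomorph 2 departed from the rest, which gave a difference of -0.14 (SE 0.20) that turned to 0.08 without it. A dimmer Aldh1l1 probe read 6.67, 6.08 and 5.68 in the hypomorphs, against 6.63, 5.64 and 6.19 in wild type. Its difference was -0.01 (SE 0.32). The neurotensin receptor Ntsr2 differed by 0.22 (SE 0.39) and Ndrg2, a differentiation-associated protein of astrocytes, by -0.03 (SE 0.13).

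Of the 5 genes that take up and recycle transmitters 3 had higher and 2 lower values in the hypomorph, with a median log2 difference of 0.14, and none passed after adjustment. Slc1a3 (GLAST), the chief glutamate transporter of Bergmann glia, read 15.38, 15.23 and 15.34 in the hypomorphs, against 15.36, 15.29 and 15.34 in wild type. These values overlapped fully, and the 95% confidence interval of the log2 difference of -0.01 ran from -0.30 to 0.28. Slc1a3 lay near the top of the intensity scale, where the brightest probe of all read 15.57 and 19 tested probes had a higher mean, and the part of saturation in its narrow spread was not tested. Slc1a2 (GLT-1), the other main glutamate transporter of astrocytes, differed by -0.03 (SE 0.16) and -0.16 (SE 0.13) on its tested probes, while 3 more of its probes were not well above background on any array.

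Dao, D-amino acid oxidase, which degrades D-serine and is prominent in cerebellar astroglia, read 10.92, 10.76 and 10.75 in the hypomorphs, against 10.67, 10.67 and 10.54 in wild type. Each hypomorph lay above each wild-type animal, yet the log2 difference of 0.19 (SE 0.13, 95% confidence interval -0.11 to 0.49) did not pass in limma (unadjusted p = 0.189, adjusted p = 0.999). Its dimmer probe differed by 0.24 (SE 0.20) with overlapping groups. Glul, glutamine synthetase, read 7.18, 5.97 and 7.34 in the hypomorphs, against 6.30, 6.12 and 6.87 in wild type. Its groups overlapped and hypomorph 2 was the lowest of the 6, with a difference of 0.40 (SE 0.38). This became 0.83 without that animal, 0.62 without wild type 3, 0.25 without wild type 2, 0.23 without hypomorph 1 and 0.15 without hypomorph 3. The Glul probe lies near background, and the difference was 0.30 without background correction and 0.20 with the authors' processed values. Slc6a11, the GABA transporter GAT-3, differed by 0.14 (SE 0.19).

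Genes of gap junctions and of ion and water balance varied more between animals than between genotypes. Aqp4, the water channel of astrocyte end-feet, read 13.10, 12.37 and 12.77 in the hypomorphs, against 13.40, 12.58 and 13.07 in wild type, a log2 difference of -0.27 (SE 0.26). The groups overlapped, and the difference was -0.49 without wild type 2, -0.44 without hypomorph 1, -0.08 without hypomorph 2 and -0.07 without wild type 1. Between arrays of the same number it was -0.30, -0.20 and -0.30. Slc4a4, a sodium bicarbonate cotransporter, read 11.66, 10.26 and 9.91 in the hypomorphs, against 10.41, 9.93 and 9.69 in wild type. Its difference of 0.60 (SE 0.44), the largest among the members, was 0.08 without hypomorph 1 and 0.95 without hypomorph 3, and a dimmer probe went the other way by -0.27 (SE 0.34). The connexins Gja1 and Gjb6, which couple astrocytes, differed by -0.11 (SE 0.24) and -0.03 (SE 0.16), and the adhesion protein Hepacam by -0.05 (SE 0.16).

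The intermediate filament genes all had small negative differences. Gfap, the filament protein that marks astrocytes and increases in reactive ones, read 11.33, 11.22 and 11.22 in the hypomorphs, against 11.72, 11.05 and 11.54 in wild type. The hypomorphs lay inside the wild-type range, with a difference of -0.19 (SE 0.19) that was -0.38 without wild type 2 and -0.04 without wild type 1, and a dimmer Gfap probe differed by -0.01 (SE 0.27). Vim, the filament protein of immature and radial glia, differed by -0.03 (SE 0.30) and Nes, a filament of neural precursors, by -0.22 (SE 0.23), with a dimmer Nes probe at 0.08 (SE 0.26).

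Of the transcriptional regulators, Sox9, which specifies astroglia, read 12.43, 12.30 and 12.18 in the hypomorphs, against 12.36, 12.01 and 12.19 in wild type. The groups overlapped (difference 0.12, SE 0.15, with a range of 0.03 to 0.20 when 1 array was left out), and a dimmer probe differed by -0.02 (SE 0.24). Hopx, a homeodomain-only protein enriched in Bergmann glia, read 13.69, 13.18 and 13.17 in the hypomorphs and 13.77, 12.98 and 13.38 in wild type, a difference of -0.03 (SE 0.24) whose sign changed without hypomorph 2, hypomorph 3 or wild type 1. Id4, an inhibitor of basic helix-loop-helix factors, read 11.01, 10.23 and 10.75 in the hypomorphs, against 11.32, 10.54 and 11.14 in wild type. Its difference of -0.34 (SE 0.27), which was -0.57 without wild type 2, -0.51 without hypomorph 1, -0.18 without wild type 1 and -0.12 without hypomorph 2, was not shared by a dimmer probe at 0.06 (SE 0.17). Same-numbered arrays differed by -0.31, -0.31 and -0.39 on the brighter Id4 probe and by -0.24, 0.22 and 0.20 on the dimmer. Sox2, a factor of neural stem cells and glia, differed by 0.09 (SE 0.19).

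Metallothioneins are small cysteine-rich proteins that bind zinc and copper, and Mt1 and Mt2 respond to metals and glucocorticoids while Mt3 is largely confined to the nervous system. Mt1 read 15.55, 15.34 and 15.50 in the hypomorphs, against 15.38, 15.31 and 15.44 in wild type, and Mt3 read 13.19, 13.14 and 13.36 in the hypomorphs, against 13.20, 13.01 and 13.15 in wild type. Mt1 lay near the top of the scale as well, with 7 tested probes brighter on average. Both overlapped between the groups, with differences of 0.08 (SE 0.13) for Mt1 and 0.11 (SE 0.13) for Mt3, and with 1 array left out they ran from 0.04 to 0.15 for each gene. Mt2 read 9.51, 9.03 and 9.54 in the hypomorphs, against 9.76, 8.76 and 9.97 in wild type. Wild-type animals spanned the whole hypomorph range, and the difference of -0.13 (SE 0.32) changed sign without hypomorph 2 or wild type 3. The lists of metal and glucocorticoid genes that go with these proteins are given below.

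**Figure D3:**
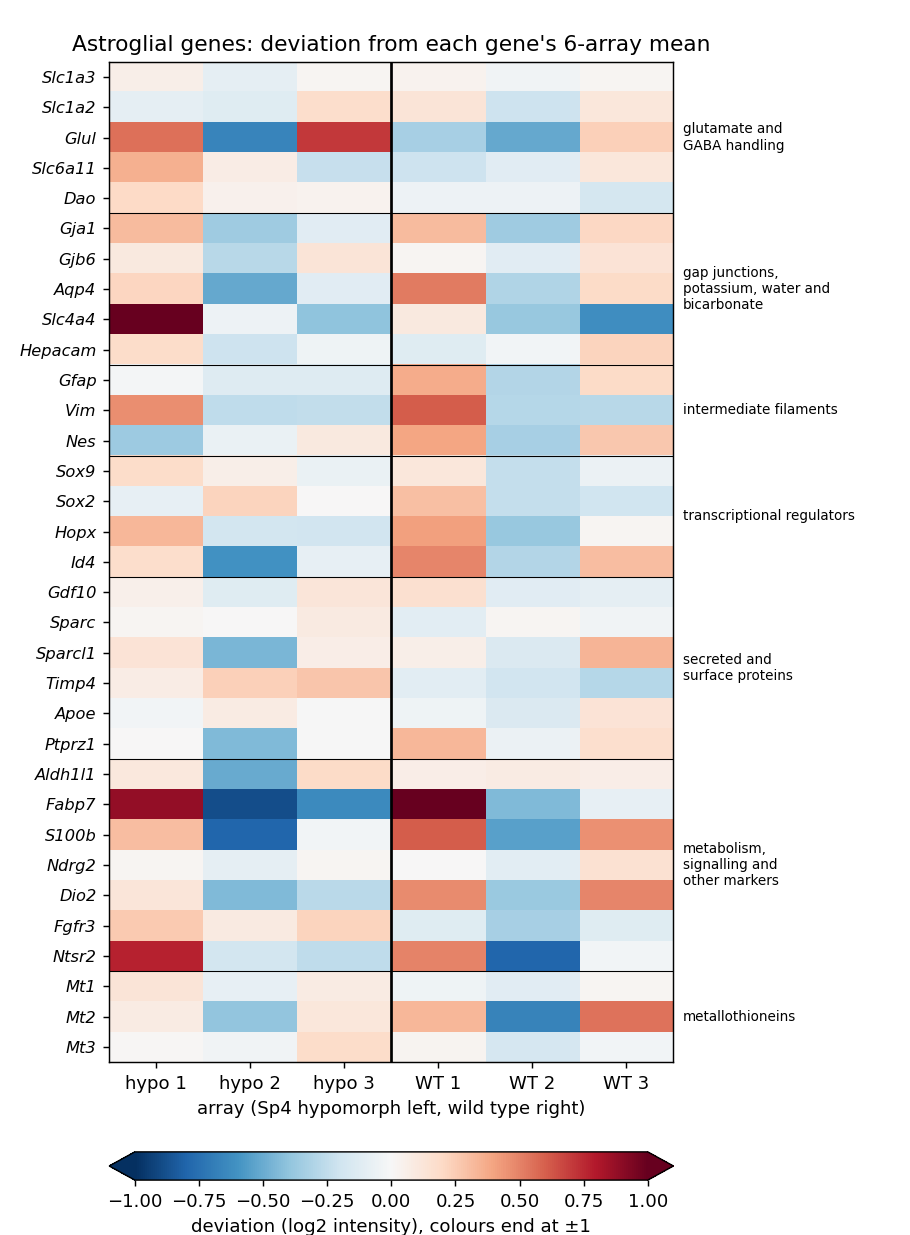
Deviation of each astroglial gene from its own mean over the 6 arrays (colour, log2 intensity, red above and blue below), with genes in rows by role and arrays in columns, hypomorphs left and wild type right. Many rows share a red column at hypomorph 1 and wild type 1 and a blue column at hypomorph 2 and wild type 2, while Timp4 and Fgfr3 split at the line between genotypes.

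The clearest pattern among the members lay between animals of the same genotype. The mean deviation over the 33 members was 0.21 on hypomorph 1, -0.22 on hypomorph 2 and -0.01 on hypomorph 3, against 0.19 on wild type 1, -0.25 on wild type 2 and 0.07 on wild type 3. The genotype means were -0.01 ± 0.21 in the hypomorphs and 0.01 ± 0.23 in wild type (SD, n = 3 each), so the genotypes differed by far less than the animals within them. Over all tested genes the corresponding means on single arrays lay between -0.04 and 0.02.

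In both genotypes the array numbered 2 lay below the array numbered 1 for 25 of the 33 members and above it for 0, where 37.6% of all genes lay below and 27.9% above in both. No member had its highest value on either array numbered 2, and 13 had their lowest value on hypomorph 2 and 14 on wild type 2. The arrays numbered 2 had the largest shares of probes above background in each genotype, 44.5% in the hypomorph and 43.7% in wild type, and those numbered 1 the smallest, 41.2% in the hypomorph and 41.4% in wild type. The part of this share in the pattern was not tested, and the labels do not say what the numbers stand for.

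The widest steps were in Fabp7, S100b and Ntsr2. Averaged over both genotypes, the arrays numbered 2 were below those numbered 1 by a log2 difference of -1.69 for Fabp7, -1.13 for S100b and -1.13 for Ntsr2. The steps were -0.94 for Slc4a4, -0.80 for Vim, -0.78 for Aqp4 and -0.78 for Id4. They were -0.74 for Mt2, -0.70 for Dio2, -0.70 for Glul, -0.67 for Gja1 and -0.65 for Hopx. Slc1a3, Ndrg2 and Gdf10 moved the same way by less, at -0.11, -0.11 and -0.22, of which Slc1a3 lies near the top of the scale, and Timp4, Sparc and Apoe hardly moved, at 0.04, 0.05 and 0.01. The steps are those of the brightest probe of each gene. A dimmer Id4 probe showed no such step, at 9.08 and 9.48 on hypomorphs 1 and 2 and 9.33 and 9.25 on wild types 1 and 2. A dimmer Slc4a4 probe fell in wild type alone, at 5.90 and 5.98 against 6.89 and 5.69. A dimmer Ndrg2 probe fell in both genotypes, at 12.44 and 12.15 against 12.35 and 12.29. Fabp7 was above background on only 1 of 3 hypomorph arrays, so the size of its step is uncertain. These values were read after the pattern had been seen and are given as a description.

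After the genotype means were removed, the correlation of each member with the mean of the other members over the 6 arrays exceeded 0.8 for 14 of the 33, lay between 0 and 0.8 for 17 and was negative for Sparc (-0.48) and Timp4 (-0.29). Gja1, Aqp4 and the brighter probe of Id4 had 0.99 each. Fgfr3, whose separation by genotype was taken out with the genotype means, had 0.94. The mean correlation over all pairs of members was 0.41, against 0.01 over all tested genes, and the points share arrays and normalization. It was 0.42 among 12 myelin genes and 0.70 among 11 granule cell genes, so tight coupling was not a property of the astroglial genes alone.

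**Figure D4:**
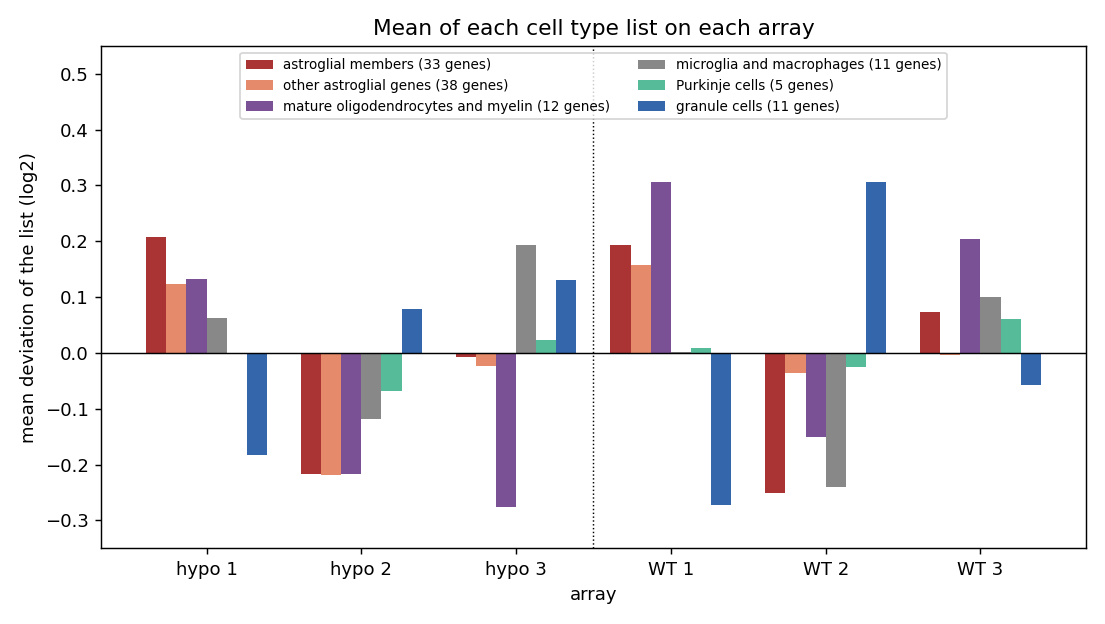
Mean deviation (log2, y axis) of the measured genes of 6 cell type lists on each of the 6 arrays, hypomorphs left and wild type right of the dotted line. The bars of the astroglial and myelin lists are above 0 on both arrays numbered 1 and below 0 on both arrays numbered 2, and the bars of the granule cell list have the opposite sign there.

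Other cell type lists moved with the astroglial mean or against it. Genes of mature oligodendrocytes and myelin had mean deviations of 0.13, -0.22 and -0.28 on hypomorphs 1 to 3, against 0.31, -0.15 and 0.20 on wild types 1 to 3, and 11 of 12 were lower in the hypomorph. Granule cell genes had -0.18, 0.08 and 0.13 in the hypomorphs, against -0.27, 0.31 and -0.06 in wild type, and for 10 of 11 the array numbered 2 lay above the array numbered 1 in both genotypes. Microglial genes had 0.06, -0.12 and 0.19 in the hypomorphs, against 0.0008, -0.24 and 0.10 in wild type. The mean of the Purkinje cell genes stayed between -0.07 and 0.06 on all arrays. Only 5 of the 13 listed were measured, with a mean correlation over pairs of -0.03, so this mean says little about Purkinje cells. Meningeal and fibroblast genes were low on the arrays numbered 2 as well, at -0.46 in the hypomorph and -0.33 in wild type. Medians of the log2 difference were -0.16 for oligodendrocyte precursor genes, -0.08 for endothelial and mural genes, 0.09 for choroid plexus and ependymal genes, -0.03 for blood cell genes and -0.01 for granule progenitor and proliferation genes. The part of cell composition in the astroglial values was not tested.

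A list of 42 further astroglial genes was read beside the members. Of its 38 measured genes 24 lay lower on the array numbered 2 than on that numbered 1 in both genotypes, and 3 lay higher. Between the genotypes 14 had higher and 24 lower values in the hypomorph, with a median log2 difference of -0.08 and none past the threshold after adjustment. Its mean on single arrays was 0.12, -0.22 and -0.02 in the hypomorphs, against 0.16, -0.04 and -0.0031 in wild type. The smallest p-values belonged to Daam2, a Wnt pathway protein, at -0.39 (SE 0.18), Wif1, a secreted Wnt inhibitor, at -0.68 (SE 0.32), and the proteoglycan Cspg5 at -0.41 (SE 0.21), and the groups overlapped for all 3.

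Genes that mark reactive astrocytes showed no common direction, with 10 of 22 higher, 12 lower and a median of -0.02. Groups were separate for 2 higher genes and 1 lower gene, against 5.5% of all tested genes higher and 5.55% lower. Serpina3n, a protease inhibitor induced in reactive astrocytes, read 10.08, 10.88 and 10.16 in the hypomorphs, against 9.52, 9.22 and 9.97 in wild type, a log2 difference of 0.80 (SE 0.27) that did not pass in limma (adjusted p = 0.834). The hyaluronan receptor Cd44 went the other way at -0.41 (SE 0.15), with a second probe at -0.19 (SE 0.32). Lcn2, a secreted lipocalin induced in reactive astrocytes, was not well above background on any wild-type array and was above it on 2 hypomorph arrays, so it was not tested. It read 5.14, 6.63 and 6.09 in the hypomorphs (mean 5.95), against 4.79, 5.18 and 4.97 in wild type (mean 4.98). Hypomorph 1 was itself not well above background, so no lowest fold is given. The groups overlapped, and Lcn2 was chosen after its values were seen. Of 14 Notch and FGF signalling genes 5 were higher and 9 lower. The smallest p-values belonged to the FGF-induced inhibitor Spry4 at 0.61 (SE 0.26) and to the Notch targets Hey2 at -0.28 (SE 0.13) and Hes5 at -0.62 (SE 0.30). Groups were separate for Hey2 alone, against 5.55% of all tested genes lower, and none passed after adjustment. Dusp6, another FGF-induced inhibitor, differed by 0.04 (SE 0.15), and the FGF-responsive factors Etv5 and Etv4 by 0.11 (SE 0.18) and -0.17 (SE 0.28), and these 3 were chosen after their values were seen.

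Among zinc transporters and the metal-response factor, set beside the metallothioneins, 13 of 16 had lower values, with a median of -0.15, and the groups did not overlap for 4 lower genes and 1 higher, against 5.55% of all tested genes lower and 5.5% higher. The zinc importer Slc39a6 read 10.67, 10.14 and 10.44 in the hypomorphs, against 10.93, 10.99 and 11.09 in wild type, a difference of -0.59 (SE 0.17, adjusted p = 0.733 in limma), and the vesicular zinc transporter Slc30a3 differed by -0.62 (SE 0.20, adjusted p = 0.80). In the glucocorticoid list 9 of 12 genes had higher values, with a median of 0.11 and overlapping groups for all 12, among them Fkbp5 at 0.50 (SE 0.32). Lipoprotein genes, which act with Apoe, had higher values in 6 of 7 and separate groups for 3 of these, against 5.5% of all tested genes, the largest difference being the endocytic receptor Lrp1 at 0.33 (SE 0.14). Of 4 measured thyroid hormone genes, listed beside Dio2, 3 were higher. The thyroxine transporter Slco1c1 was lower in every hypomorph, with a difference of -0.35 (SE 0.14, adjusted p = 0.900 in limma), where 5.55% of all tested genes had lower, separate groups. No gene of these lists passed the threshold.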

How the data were processed

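Cerebellar RNA of 3 Sp4 hypomorphic and 3 wild-type mice was read on Illumina arrays, and BeadStudio appears in the submitters' processing notes, without a version or genome build in the sources used here. Non-normalized intensity values, background-subtracted on a linear scale, were deposited with a detection p-value per probe and array. A second table deposited by the authors holds processed intensity values, with medians from 161.3 to 161.5 and the ranks of the first table, apparently quantile-normalized and shifted upward, and served as an alternative.

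Background correction, quantile normalization and log2 transformation with an offset of 16 used neqc in limma 3.58.1 (R 4.3.3). Normalization hides a shift shared by most transcripts. Tests used lmFit and eBayes without a block on 19515 probes detected on 3 or more arrays, with Benjamini-Hochberg adjustment and a threshold of 0.05. They were tried on simulated data with independent noise and shifts larger than any member's difference. Changes of the members' size were not covered by that trial. Gene names came from the platform annotation, in which 34885 probes had 1 symbol, 18 several and 10378 none.

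The members and lists were chosen with earlier results of these data known. Values on every array are given for the 8 members with the smallest p, for any with separate groups and a fold of at least 1.2, for 9 defining genes and for metallothioneins. Other members are given by differences. In each further list up to 3 genes with the smallest p were named. Alternatives covered the block, background, scaling, offset, filter, variance model, array weights, probe choice and each array left out. The number of arrays limits the precision.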

Additional observations from a re-analysis of the deposited data

How the results depend on the processing

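The count of 0 astroglial probes past the threshold held under every alternative run, with a lowest adjusted p of 0.241, for Timp4 under array weights. Over all probes the count of 0 became 5 without background correction, 5 with an offset of 50, 8 with the authors' processed values, 3 with probes detected on all 6 arrays, 8 with a variance trend and robust moderation, 13 with array weights, and 0 to 2 with 1 array left out. The causes were not tested. Median scaling moved the median of all probes to -0.07, and the members' median with it to -0.07.

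With the replicate number as a block, 2 of all probes and 0 astroglial probes passed in limma (lowest adjusted p 0.442, for Fabp7). Unadjusted limma p-values in that fit were under 0.05 for 1817 of 19515 probes, against 1036 without the block. Among the members' brightest probes these were Timp4 (0.0286), Fgfr3 (0.0196) and Slc4a4 (0.0396), all higher in the hypomorph. Lower ones were Fabp7 (0.0161), Id4 (0.0313) and S100b (0.0342). The block left the differences unchanged. The SE fell from 0.56 to 0.13 for Fabp7, from 0.38 to 0.12 for S100b and from 0.27 to 0.12 for Id4. It stayed at 0.13 for Timp4 and rose from 0.19 to 0.20 for Slc6a11. Leaving out 1 array also leaves the numbers unequal between the genotypes, so the difference of a gene that follows the numbers shifts with the array left out. Between same-numbered arrays S100b, Fabp7, Aqp4 and the brighter Id4 probe were lower in every hypomorph. Other members that followed the numbers had mixed signs, such as Hopx at -0.08, 0.20 and -0.21 and Ntsr2 at 0.29, 0.61 and -0.23. Deviations of same-numbered arrays correlated at 0.44, 0.40 and 0.06, each array correlating best with its own number, which is a hint from the data only, since the labels do not tie the numbers to litters. The numbers were therefore not treated as pairs.

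Of 319 values of 20 named members under the alternatives, 306 kept their direction, and none of those with a p-value passed the threshold. The block, the filters and the variance model left these differences as they were, so their agreement adds nothing. Values averaged over probes had no p-value. Gdf10 turned to -0.0064 under median scaling. With 1 array left out the sign turned for Slc1a3 (-0.0435 to 0.0323), Gdf10 (-0.0226 to 0.115), Fabp7 (-0.97 to 0.0536), Aldh1l1 (-0.27 to 0.0777), Hopx (-0.23 to 0.17) and Mt2 (-0.50 to 0.10). The members' median ran from -0.10 to 0.05 and the difference in their mean from -0.14 to 0.09. Fabp7, not detected on 2 arrays, has no value under the stricter filter. With the authors' values Timp4 differed by 0.39 and Fgfr3 by 0.28. Dim probes such as those of Fabp7, Dio2, Glul and Mlc1 lie near background, which limits what they can show.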
